A study of Mus musculus with 4 samples.

Results

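The genes of the cytosolic ribosomal proteins were followed in E14 mouse embryonic stem cells (ESCs) with and without the kinase gene Pim3. Members were the rows of the deposited gene count table whose symbol is Rpl or Rps with a number and, optionally, the suffix a, l, x or l1, together with Rplp0, Rplp1, Rplp2 and Rpsa. Rows named as pseudogenes by the suffix -ps were left out. This gave 86 rows of 55418, and 85 of them passed the filter on low counts and were tested. The row that did not was Rpl32l, with 3, 3, 5 and 4 counts. In the GENCODE annotation of GRCm38, 82 of the 86 are protein-coding genes, while Rpl6l, Rps12l1, Rpl32l and Rps4l are processed pseudogenes despite their names. The members lie on 19 chromosomes, with 15 of them on chromosome 7 and 4 on the X chromosome.

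The WT group held 2 libraries from separate samples of unmodified E14 ESCs, and the Pim3-/- group held 2 libraries from separate clones made by CRISPR/Cas9 with guides to exons of Pim3. All cells grew on gelatin in serum medium with LIF, the cytokine that keeps ESCs undifferentiated, and the label of their strain is 12910la. Each Pim3-/- library is thus 1 clone, so a difference between genotypes and a difference between clones and their parent cultures cannot be told apart. Tests measure only the spread between these libraries. The libraries held 22029427 to 25668307 counts on genes. The count of Pim3 was 4392 and 4953 with WT labels but 4970 and 4804 with Pim3-/- labels, and so does not check them. Of the 8 ESC markers, none was at 0 in any library. Their summed level was 10228 and 9185 CPM in WT against 6588 and 6237 CPM in Pim3-/- ESCs. Dppa5a alone gave 4402 and 3530 CPM of these sums in WT and 2080 and 1979 CPM in Pim3-/- ESCs. Only 4 of the 8 markers had a negative log2 fold change, so the sums do not stand for each marker.

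A ribosome joins a small subunit, which decodes the mRNA, to a large subunit, which forms the peptide bond and feeds the new chain into an exit tunnel. Each carries a fixed set of proteins, nearly all present as a single copy, and the mRNAs of these proteins are among the most abundant in growing cells. Their mRNAs are the classical TOP mRNAs, which start with a cytosine followed by a run of pyrimidines, and mTORC1 signalling through LARP1 controls their translation and stability. Proteins made in excess over their partners are degraded.

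The sequences around the annotated start of 8 members are shown as examples of pyrimidine runs near that start. RefSeq promoter sequences of GRCm38.p6 were matched to 63 of the 86 members. Each line gives 20 bases before and 20 bases from the annotated start, 5′ to 3′ on the strand of the gene, with CTTTC or CTTTT in capitals. In Rps25 and Rpl4 all capitals lie before the annotated start, so these lines show no pyrimidine run that begins the annotated transcript. The first 4 are the members with such a motif whose log2 fold changes in Pim3-/- ESCs were lowest, and the last 4 those whose fold changes were nearest to 0, leaving out one chromosome whose sequences are not printed here.
Rpl35 (chr2:39005112-39005151, minus strand): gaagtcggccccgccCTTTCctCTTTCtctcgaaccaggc
Rps25 (chr9:44407694-44407733, plus strand): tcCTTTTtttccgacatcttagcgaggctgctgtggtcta
Rpl15 (chr14:18270967-18271006, minus strand): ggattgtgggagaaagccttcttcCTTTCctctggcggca
Rps27 (chr3:90213629-90213668, minus strand): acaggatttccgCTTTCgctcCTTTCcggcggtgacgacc
Rpl4 (chr9:64173367-64173406, plus strand): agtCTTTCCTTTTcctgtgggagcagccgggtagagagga
Rps10 (chr17:27635225-27635264, minus strand): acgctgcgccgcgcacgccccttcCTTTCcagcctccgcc
Rpl28 (chr7:4792945-4792984, plus strand): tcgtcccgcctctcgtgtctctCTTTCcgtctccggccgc
Rplp2 (chr7:141447631-141447670, plus strand): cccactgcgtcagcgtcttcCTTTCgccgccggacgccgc

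On the sense strand of this 40-base window, CTTTC or CTTTT was found in 21 of the 63 members (33.3%) and in 9.18% of all 27025 promoters. The median log2 fold change was -0.84 for the 21 members with the motif and -0.90 for the 42 without it. This split rests on exact letters near an annotated start and does not part TOP mRNAs from others. Whether a TOP start matters for the fold change was not tested. The letters CCGGAAG, searched on both strands from 250 bases before to 50 bases after the start, were found in 24 of the 63 (38.1%) and in 9.12% of all promoters. Here the medians were -0.92 with the motif and -0.89 without it.

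The ribosomal protein genes took a smaller share of the transcriptome in Pim3-/- ESCs. Of all gene counts, they held 17.8% and 15.6% in WT but 11.5% and 13.8% in Pim3-/- ESCs, and the groups did not overlap. The means were 16.7% ± 1.52 (SD, n = 2) and 12.7% ± 1.64 (SD, n = 2), and the 95% Wilson interval of each share was within 0.0156 percentage points, which covers counting error only. This share needs no scaling between libraries, and no test is given for it because an exact permutation test of 2 against 2 libraries cannot go below a p of 1 in 3. The 10 members with the most counts in WT took 24.4% and 24.8% of the family's total in WT and 24.6% and 24.6% in Pim3-/- ESCs, so the weight of the leading genes within the family hardly moved. In bulk RNA, fewer cells with high levels and less RNA per cell cannot be told apart.

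**Figure D1:**
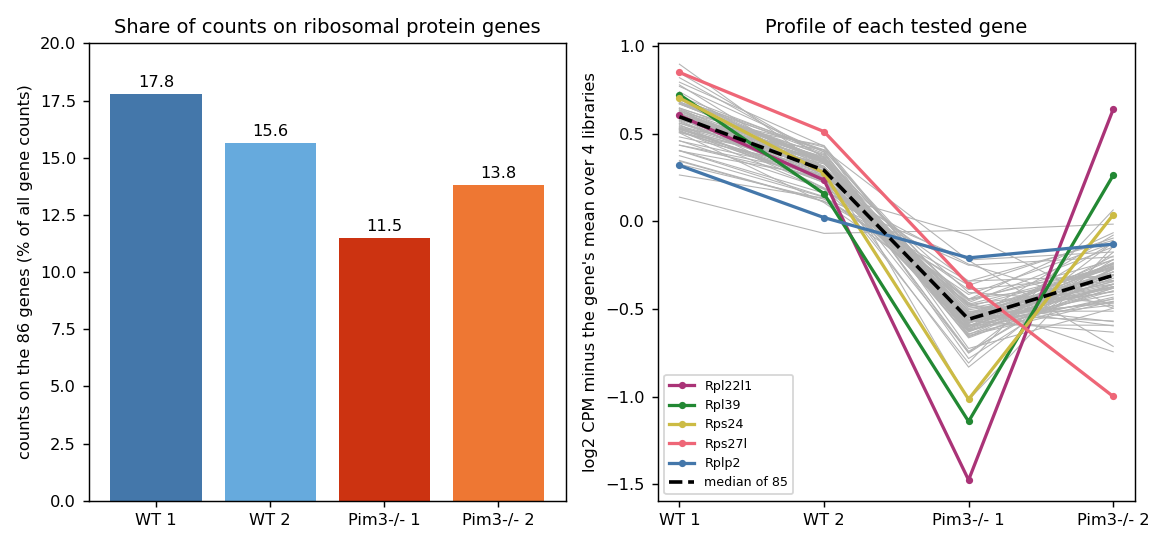
Left, the share of all gene counts on the 86 genes in each library (%), with WT at 17.8 and 15.6 and Pim3-/- at 11.5 and 13.8. Right, log2 CPM of each of the 85 tested genes minus its own mean over the 4 libraries, where lines join the values of 1 gene, 5 genes are coloured and the dashed line is the median of the 85.

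For single genes, counts were scaled by TMM factors and are given as CPM, scaled counts per 1000000 counts. Of the 85 tested members, 65 were lower in Pim3-/- ESCs at an adjusted p under 0.05 and 0 were higher, by the quasi-likelihood test of edgeR, adjusted over all genes after Benjamini and Hochberg. Over all 18444 tested genes, 16.2% were called lower and 17.6% higher. DESeq2's Wald test called 75 lower, beside 17.3% of all genes, and 0 higher. Fitted log2 fold changes of all 85 were negative in both fits, so 0 higher follows at any p threshold. In the edgeR fit they ran from -1.34 to -0.07, with a median of -0.90 beside 0.07 over all tested genes. Both Pim3-/- libraries lay below both WT libraries for 82 of the 85, compared with 34.2% of all tested genes. The exceptions were Rpl39, Rpl22l1 and Rpl3l. This and later statements on whether gene levels overlap between groups refer to CPM scaled by TMM factors. The order of libraries under library totals was not counted. The member just inside the threshold was Rps9, with an adjusted p of 0.0499.

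These calls depend on the scaling and on which libraries are kept. Scaled by library totals alone, 13 members were lower and 0 higher, beside 5.92% of all genes called lower, and the fold changes of all genes moved up by about 0.45 so that the median member stood at -0.44 and the median gene at 0.52. Over all genes, the split of lower against higher calls was 2987 to 3246 with TMM factors and 1092 to 6606 with library totals. Relative to the median gene, the median member was lower by 0.97 and 0.96 on the log2 scale under these scalings. Without WT replicate 1, 0 members were called lower by edgeR beside 1.88% of all genes, and without WT replicate 2, 7 were called beside 5.35%. In such fits the spread of a gene comes only from the 2 libraries of the other group. The median log2 fold changes of members without WT replicate 1 and without WT replicate 2 were -0.78 and -1.11, beside 0.05 and 0.07 over all tested genes. Without Pim3-/- replicate 1 or 2, 71 and 81 members were called lower, beside 27.5% and 25.3% of all genes.

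**Figure D2:**
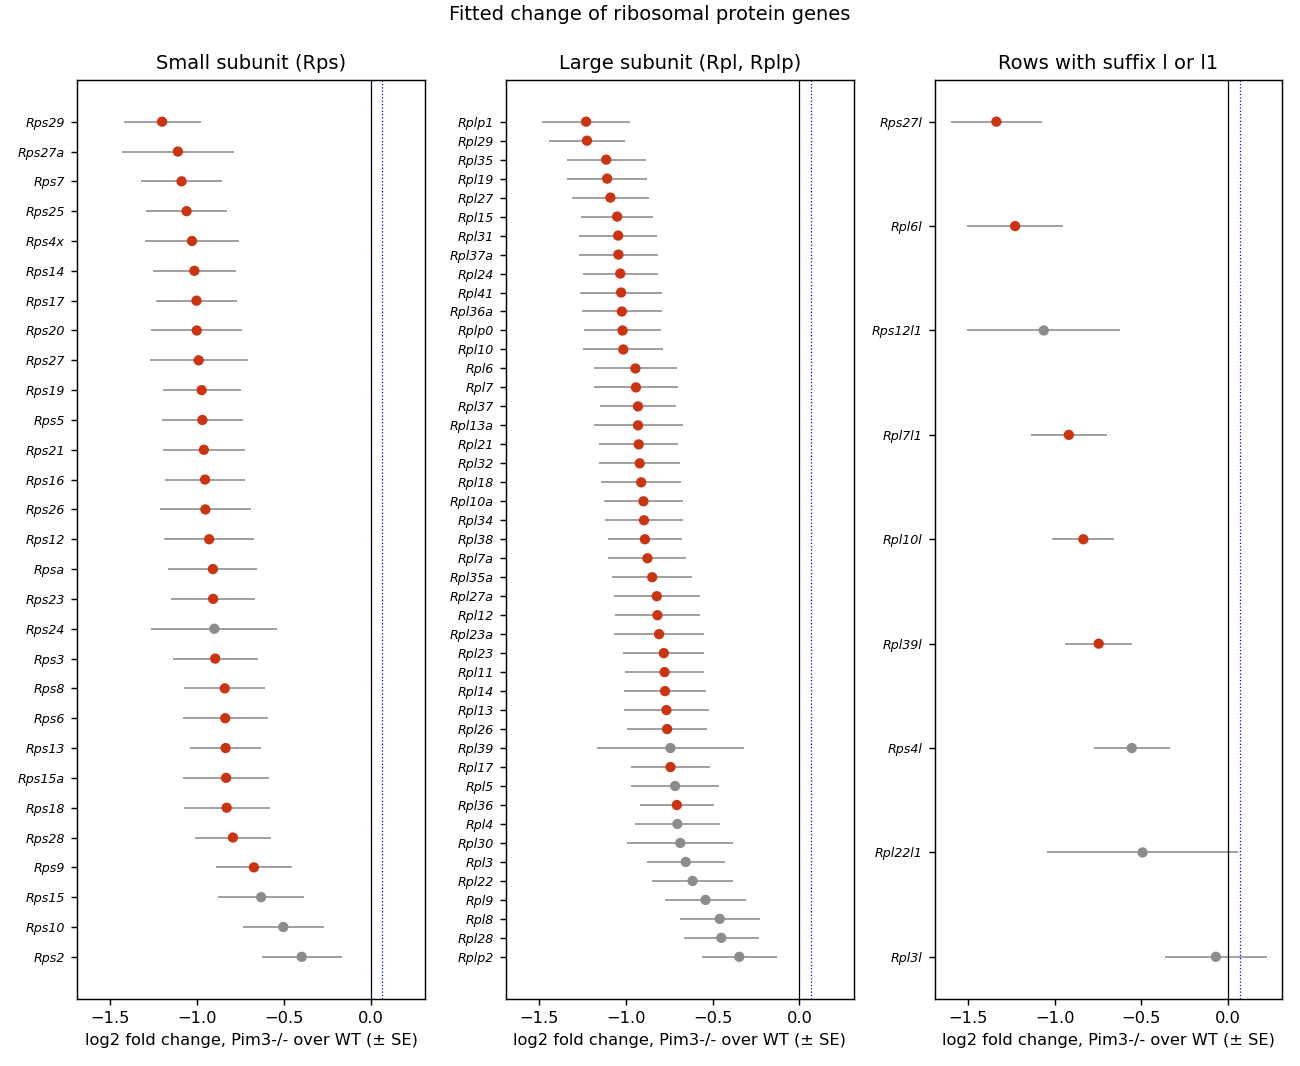
Fitted log2 fold change of Pim3-/- over WT with its standard error for 83 of the 85 tested genes, for the small subunit, the large subunit and the rows with suffix l or l1. Red points had an adjusted p under 0.05 and grey points did not, the dotted line marks the median of all tested genes at 0.07, and no point lies above 0.

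Abundant genes outside the family were also lower in Pim3-/- ESCs. Of the 69 other genes with a mean log2 CPM above 10, 37 were lower and 5 higher, with a median log2 fold change of -0.78, while 50 of the 63 members at that level were lower, with a median of -0.90. Between 8 and 10, 219 of 436 other genes were lower and 12 higher, with a median of -0.64, against 11 of 15 members and a median of -0.89. The 7 other tested members lay at lower levels, where the median gene was less negative. Whether the fall of the members has a source of its own was not tested.

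**Figure D3:**
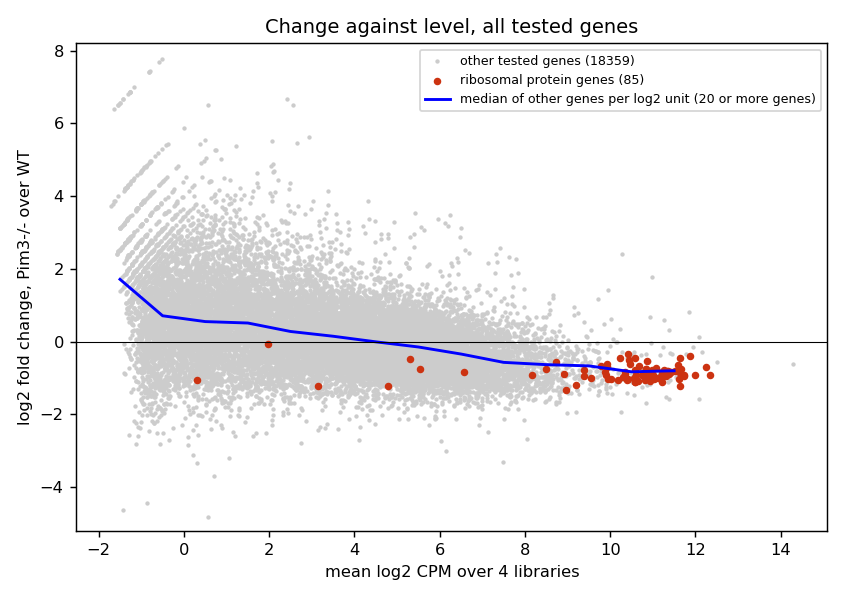
Log2 fold change of Pim3-/- over WT against the mean log2 CPM of the 4 libraries for all 18444 tested genes, with the 85 ribosomal protein genes in red and the median of the other genes per log2 unit as a line. The line falls with level, and most red points lie at levels above 10, where their median was -0.90 beside -0.78 for the other genes.

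Genes of the small subunit fell in Pim3-/- ESCs in 25 of 30 cases, with a median log2 fold change of -0.92. Rpsa, the laminin receptor precursor that also forms part of the small subunit, took the most counts of the family. It stood at 7350 and 6203 CPM in WT and at 3242 and 3975 CPM in Pim3-/- ESCs, and it fell by 0.91 on the log2 scale (SE 0.26, adjusted p = 0.0310). Rps6, the classical substrate of S6 kinase, fell from 4359 and 3701 CPM to 2000 and 2509 CPM (log2 fold change -0.84, adjusted p = 0.0352). For both genes each Pim3-/- library was below each WT library, by a wider gap than that within either group.

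Rps29 showed the largest fall of the small subunit, from 948 and 692 CPM to 357 and 356 CPM (log2 fold change -1.20, SE 0.22, adjusted p = 0.00870). The Pim3-/- libraries were nearly equal. Rps4x, one of the 4 X-linked members, fell from 4632 and 3776 CPM to 1691 and 2427 CPM (-1.03, adjusted p = 0.0250). Rps19 and Rps14, known from anaemias in which a single copy is lost, fell by 0.97 (adjusted p = 0.0163) and 1.02 (adjusted p = 0.0175) on the log2 scale. Rps3, at the entry of the mRNA channel and also a DNA repair factor, fell by 0.90 (adjusted p = 0.0279). Rps27 went from 1150 and 831 CPM to 387 and 609 CPM (-0.99, adjusted p = 0.0318), and Rps27a, which is made as a fusion with ubiquitin, from 2350 and 1812 CPM to 680 and 1247 CPM (-1.11, adjusted p = 0.0331). Rps12 fell by 0.93 (adjusted p = 0.0298).

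The 5 genes of the small subunit that did not pass the test included Rps24, Rps15, Rps10 and Rps2. Rps2, which lines the mRNA entry with Rps3, stood at 4484 and 4092 CPM in WT and at 3205 and 3307 CPM in Pim3-/- ESCs (log2 fold change -0.40, SE 0.23, adjusted p = 0.210). The groups did not overlap in these CPM, but the difference was small beside that of its neighbours. With library totals the log2 fold change of Rps2 was 0.06. When counts were scaled on the summed members, so that each gene is read against its own family, Rps2 was the only member called, higher by 0.46 (SE 0.19, adjusted p = 0.0307), while 51.7% of all genes were called higher under that scaling. Rps2 overlaps the noncoding gene Snhg9 on the opposite strand, and with the use of strand not given, reads of the pair cannot be told apart.

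Genes of the large subunit were lower in 35 of 46 cases, with a median of -0.88. The acidic stalk, which recruits the elongation factors, is built from Rplp0 and dimers of Rplp1 and Rplp2. Rplp1 had 5059 and 3929 CPM in WT and 1764 and 2069 CPM in Pim3-/- ESCs and fell by 1.23 on the log2 scale (SE 0.25, adjusted p = 0.0115). Rplp0 went from 3327 and 2991 CPM to 1504 and 1613 CPM (-1.02, SE 0.22, adjusted p = 0.0138). Rplp2 had 1694 and 1378 CPM in WT and 1175 and 1241 CPM in Pim3-/- ESCs (-0.35, SE 0.22, adjusted p = 0.244), the smallest difference of any member without the suffix l. The partners in the stalk thus had unlike values, and read against the family Rplp1 stood at -0.37 (adjusted p = 0.111) and Rplp2 at 0.52 (adjusted p = 0.0570). The difference between the 3 genes was not itself tested. Rplp1 lies on chromosome 9 (61913284 to 61914542, minus strand) and Rplp2 on chromosome 7 (141447370 to 141451585, plus strand) in GRCm38.

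Rpl5 and Rpl11 enter the ribosome together with the 5S rRNA and, outside it, bind MDM2. Rpl11 went from 2136 and 1765 CPM to 1027 and 1249 CPM (-0.78, adjusted p = 0.0359), and Rpl5 from 2836 and 2500 CPM to 1348 and 1899 CPM (-0.72, adjusted p = 0.0619). The groups did not overlap for either gene in these CPM, and Rpl5 did not pass the threshold. With library totals the log2 fold changes were -0.32 for Rpl11 and -0.26 for Rpl5. Rpl10, which joins at the last step of large subunit maturation, fell by 1.02 (adjusted p = 0.0153), and Rpl7 fell by 0.94 (adjusted p = 0.0221). The early assembling Rpl3 and Rpl4 did not pass, with -0.65 (adjusted p = 0.0578) and -0.70 (adjusted p = 0.0582). Rpl19, from 3601 and 2952 CPM to 1540 and 1501 CPM, fell by 1.11 (adjusted p = 0.0120), and Rpl24, from 1992 and 1658 CPM to 892 and 892 CPM, fell by 1.03 (adjusted p = 0.0121).

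Rpl29, a protein of the subunit surface, fell from 44.9 and 32.1 CPM to 18.1 and 14.9 CPM (-1.22, SE 0.22, adjusted p = 0.00801), the lowest adjusted p of the family. Its level per length was the lowest of the 76 members without the suffix l, with 384 to 860 counts a library where each of the other 75 had at least 3977. How reads with several locations were counted is not given in the sources used here, so levels of genes with many near-identical copies are uncertain. At the other end, Rpl28 had 1473 and 1283 CPM in WT and 927 and 1090 CPM in Pim3-/- ESCs (-0.45, adjusted p = 0.138), and Rpl8, of the peptidyl transferase region, had 3984 and 3395 against 2640 and 2728 CPM (-0.46, adjusted p = 0.156). Rpl22 was at 1346 and 1021 CPM and at 688 and 857 CPM (-0.62, adjusted p = 0.0782).

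Together the genes of the small subunit had 40.9% and 40.5% of the counts of the 76 members without the suffix l in WT and 39.4% and 41.2% in Pim3-/- ESCs. The Pim3-/- libraries lay on both sides of the WT libraries, and each 95% Wilson interval was narrower than these gaps. Per kilobase of transcript, the 76 genes had a median level of 3259 CPM per kb in WT, with the middle of the distribution between 2417 and 4016, against a median of 4.92 over all tested genes. Rps12, Rplp1 and Rps24 had the highest levels per length over the 4 libraries, and in WT they stood at 9019, 9006 and 6707 CPM per kb. Rpl32l, Rpl3l and Rps12l1 had the lowest, at 0.362, 2.87 and 4.02 CPM per kb in WT. Length was that of the shortest transcript with an APPRIS tag, which matters for genes with retained introns.

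The rows with suffix l or l1 are retrogenes, paralogues or pseudogenes of members, often with tissue-restricted use, and 5 of the 9 tested were lower, with a median of -0.83. Rps27l, the p53-inducible paralogue of Rps27, showed the most negative fold change of the family, from 805 and 637 CPM to 348 and 224 CPM (-1.34, SE 0.26, adjusted p = 0.0104). Rpl7l1, a factor of large subunit maturation, went from 393 and 362 CPM to 234 and 166 CPM (-0.92, adjusted p = 0.0179). The testis-enriched Rpl10l, a retrogene of the X-linked Rpl10, fell from 131 and 113 CPM to 63.2 and 74.0 CPM (-0.83, adjusted p = 0.0130), and Rpl39l from 65.3 and 50.8 CPM to 37.6 and 31.6 CPM (-0.75, adjusted p = 0.0230). None of these 4 genes overlapped between the groups. Rpl6l, an annotated pseudogene, fell from 14.8 and 9.80 CPM to 5.36 and 5.12 CPM (-1.23, adjusted p = 0.0154).

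The other 4 tested rows did not pass. Rpl3l, the striated-muscle paralogue of Rpl3, had 81, 83, 99 and 98 counts, that is 4.23 and 3.67 CPM in WT against 3.71 and 3.80 CPM in Pim3-/- ESCs (-0.07, SE 0.29, adjusted p = 0.869), so the groups overlapped. Rps12l1 had 36, 30, 21 and 19 counts (-1.06, adjusted p = 0.0967). Rps4l, a transcribed processed pseudogene on chromosome 6 (148354656 to 148355598), had 547 and 462 CPM in WT and 391 and 295 CPM in Pim3-/- ESCs (-0.56, adjusted p = 0.0839). Its counts made up 10.6% and 10.9% of those on Rps4l and Rps4x in WT, 18.8% in Pim3-/- replicate 1 and 10.8% in replicate 2.

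Rpl22l1 and Rpl39 set the Pim3-/- clones apart. Rpl22l1, the paralogue that can take the place of Rpl22, had 998 and 914 counts in the 2 WT samples, 329 in Pim3-/- replicate 1 and 1376 in replicate 2, or 52.1, 40.4, 12.3 and 53.4 CPM. Replicate 1 was far below WT and replicate 2 at its upper end, so the mean difference (-0.49, SE 0.55, adjusted p = 0.509) describes neither clone. In fits with 1 library left out it was 0.19 without replicate 1 (adjusted p = 0.262) and -1.92 without replicate 2 (adjusted p = 2.34e-27), the latter resting on the single library of the other clone. Of the counts on Rpl22l1 and Rpl22, Rpl22l1 held 3.73% (95% Wilson interval 3.51 to 3.96) and 3.80% (3.57 to 4.05) in WT, 1.76% (1.58 to 1.96) in replicate 1 and 5.86% (5.57 to 6.17) in replicate 2. It lies on chromosome 3 (28805436 to 28807424, plus strand), where the antisense gene Gm33051 overlaps it.

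Rpl39, a small protein that lines the exit tunnel, had 543 and 367 CPM in WT, 149 CPM in Pim3-/- replicate 1 and 394 CPM in replicate 2 (-0.74, SE 0.42, adjusted p = 0.204). Rps24 had 3601 and 2676 CPM in WT and 1094 and 2268 CPM in Pim3-/- ESCs (-0.90, SE 0.36, adjusted p = 0.0897), and Rpl30 had 1191 and 979 against 476 and 872 CPM (-0.69, adjusted p = 0.116). For these genes replicate 1 was the low library. Rpl22l1, these 3 genes and Rps27a are the 5 members with the largest difference between the clones, and a single library per clone gives no error for it.

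The shift between the clones ran through most of the family. Replicate 2 was higher than replicate 1 for 74 of the 85 members, with a median log2 difference of 0.23, where 47.1% of all tested genes were higher in replicate 2 and the median was -0.04. A ratio of at least 1.5 was reached by 7 members, and by 13.7% of all tested genes. In the other direction stood 6 of the 9 rows with a suffix, among them Rps27l (-0.64), Rpl7l1 (-0.49) and Rps4l (-0.41), and 5 of the other 76 members. Rps27l made up 41.2% and 43.4% of the counts on Rps27 and Rps27l in WT, 47.4% in replicate 1 and 26.8% in replicate 2. Rpl39l made up 10.7% and 12.2% of those on Rpl39 and Rpl39l in WT, 20.2% in replicate 1 and 7.42% in replicate 2. In these pairs the paralogue thus had a larger share in replicate 1 than in WT and a smaller one in replicate 2, the opposite of Rpl22l1. The smallest differences between the clones were those of Rpl24, Rps29, Rpl3 (2389 and 2438 CPM), Rpl3l and Rpl19.

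**Figure D4:**
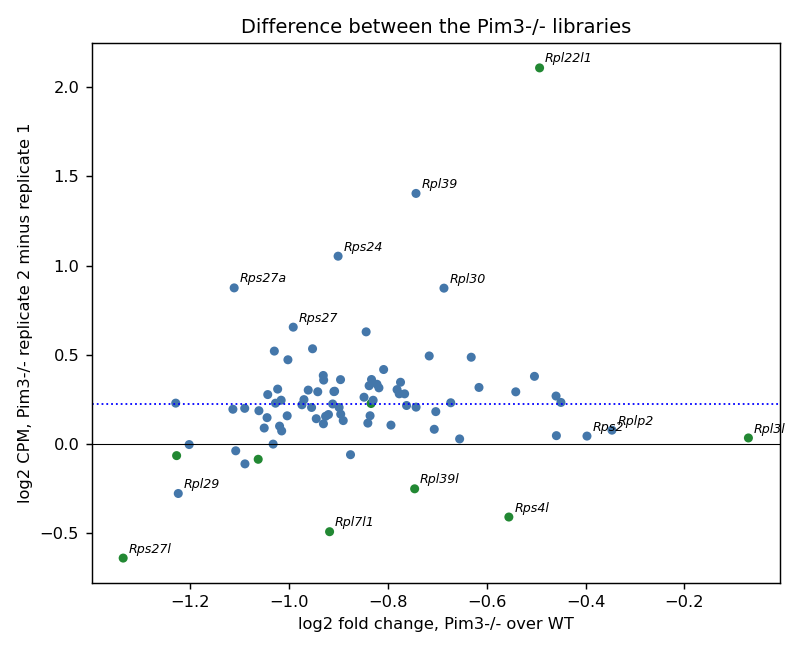
Difference in log2 CPM between Pim3-/- replicate 2 and replicate 1 against the fitted log2 fold change of Pim3-/- over WT, with the 9 rows of suffix l or l1 in green and the other 76 members in blue. The dotted line is the median at 0.23, Rpl22l1 lies highest at 2.11 and Rps27l lowest at -0.64.

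The WT libraries differed too, since WT replicate 1 was above replicate 2 for 85 of 85 members, with a median log2 difference of 0.30, compared with 49.5% of all tested genes and a median of 0.00. Over the 76 members without the suffix l, the standard deviation of the log2 difference was 0.08 between the WT libraries, 0.25 between the Pim3-/- libraries and 0.19 for the fitted fold change. The difference thus varied less from gene to gene between the WT libraries than between the clones. Across these 76 genes, which share libraries and are not independent, the difference between the WT libraries was smaller for longer transcripts (Spearman's rho -0.65, Pearson's r -0.56 with log2 length). It was also smaller at higher WT levels (rho -0.42, r -0.56 with log2 level). The fold change showed almost no relation to length (rho 0.09, r 0.04) or to the WT level (rho 0.01, r 0.10).

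Many ribosomal protein genes carry small nucleolar RNAs in their introns, which guide the modification of rRNA. By the annotation, 29 of the 76 members without the suffix l host at least 1 snoRNA and 47 host none. Of the hosts 20 were lower, with a median of -0.84, and of the others 40, with a median of -0.95. The 4 X-linked members had a median of -1.02. In all, 23 of the 86 members overlap a gene on the opposite strand.

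Ribosomal proteins whose symbols fall outside the naming rule had like values, and 6 of the 6 measured were lower. Rpl36al and Rps27rt fell by 1.17 (adjusted p = 0.00819) and 1.12 (adjusted p = 0.0309). Rack1, a scaffold on the head of the small subunit, fell by 0.93 (adjusted p = 0.0212), Rps3a1 by 0.90 (adjusted p = 0.0311) and Fau, a fusion of a ubiquitin-like protein with a small subunit protein, by 0.80 (adjusted p = 0.0276). Rows named as pseudogenes of members held 1.07% to 1.15% of the reads on members and pseudogenes together in every library. Of the 86 such rows tested, 27 were lower and 1 higher, with a median of -0.84.

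The factors that build ribosomes were lower as well, in 101 of 161 genes, with 1 higher and a median of -0.81. Over all tested genes, 16.2% were called lower and 17.6% higher. Ngdn, Wdr55 and Utp14a, nucleolar proteins of rRNA processing, had the lowest p-values, with log2 fold changes of -1.57 (adjusted p = 0.00304), -1.63 (adjusted p = 0.00349) and -1.44 (adjusted p = 0.00383). The one that rose was Taf1c, a subunit of the selectivity factor of RNA polymerase I, from 11.1 and 9.41 CPM to 15.7 and 17.2 CPM (0.69, adjusted p = 0.0410), a call that was lost with DESeq2's size factors, with its Wald test, with no filter and without either WT library. In the clones these genes ran against the members, with a median difference between replicate 2 and replicate 1 of -0.31.

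A list of 30 other genes with TOP transcripts included noncoding snoRNA hosts such as Gas5 and Snhg1. Of the 30, 17 were lower and 1 was higher, with a median of -0.63, beside 16.2% and 17.6% of all tested genes. Eif3k, an initiation factor subunit, went from 815 and 689 CPM to 289 and 272 CPM (-1.42, adjusted p = 0.00474), and Hnrnpa1 and Btf3 fell by 1.40 (adjusted p = 0.00592) and 1.24 (adjusted p = 0.00694). The elongation factor Eef2, which moves the ribosome along the mRNA, rose from 2598 and 2787 CPM to 4008 and 5489 CPM (0.82, SE 0.26, adjusted p = 0.0434), so genes of this class did not all move one way. The call on Eef2 was lost with DESeq2's size factors, with the replicate number as a block and without either WT library, although both Pim3-/- libraries were above both WT libraries.

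Mitochondrial ribosomal protein genes serve a separate ribosome and have no TOP motif as a class. They were lower in 65 of 78 cases, beside 16.2% of all tested genes, with 0 higher and a median of -0.98. Of the 78, 77 had a negative log2 fold change and the highest was 0.02, so 0 higher nearly follows from the signs. DESeq2's Wald test called 67 lower, beside 17.3% of all tested genes, and 0 higher. Mrps18c, Mrps21 and Mrpl36 had the lowest p-values, with -1.32 (adjusted p = 0.00394), -1.65 (adjusted p = 0.00395) and -1.78 (adjusted p = 0.00408). The clones differed here by a median of -0.37, the other way round from the cytosolic family, and all 78 were higher in WT replicate 1 than in replicate 2.

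Among 2888 other genes with a mean log2 CPM of at least 6, the profiles nearest to the family's median over the 4 libraries were those of Rps3a2, Fau, Cand2, Rbmxl2 and Ndufb9, by Euclidean distance of centred log2 CPM (0.0457 to 0.0897). Rps3a2 is an annotated processed pseudogene of a ribosomal protein gene on chromosome 14. Cand2 overlaps Rpl32 by 53 bases on the opposite strand on chromosome 6, so its counts may hold reads of Rpl32. Its values were 222 and 174 CPM in WT and 102 and 121 CPM in Pim3-/- ESCs.

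Markers of cell states moved beside the family. Of the 8 ESC markers, Pou5f1 (-1.12, adjusted p = 0.00993), Nanog (-0.90, adjusted p = 0.0155) and Dppa5a (-0.97, adjusted p = 0.0200) were lower and Klf4 was higher (1.44, adjusted p = 0.00369). The others did not pass, with Sox2 at 0.38, Tdgf1 at 0.33, Esrrb at 0.03 and Zfp42 at -0.48. By qPCR, the paper reports Oct4 (Pou5f1) and Sox2 undisturbed and Nanog raised in its Pim3-/- ESCs, and it cites a NANOG western blot. The reason for this difference was not tested, and the fold changes depend on the scaling. The summed level of 5 primitive endoderm markers was 2.61 and 4.37 CPM in WT against 23.3 and 14.4 CPM in Pim3-/- ESCs, and the 4 tested rose. Among them, Sox17 had 1 and 5 counts in WT, 85 in Pim3-/- replicate 1 and 10 in replicate 2, so its rise rests mainly on 1 clone. Foxa2 was at 0 in both WT libraries. The 6 trophoblast markers summed to 138 and 135 CPM against 106 and 135 CPM. Eomes was higher (2.24), while Tfap2c (-0.39), Krt8 (-0.17) and Krt18 (-0.58) were negative and did not pass. The 5 fibroblast markers summed to 22.7 and 21.6 CPM against 25.5 and 20.3 CPM. Thy1 alone gave 20.9 and 19.8 CPM of these sums in WT and 19.0 and 18.2 CPM in Pim3-/- ESCs. Col1a1 had 1.72 and 1.68 CPM against 5.25 and 2.02 CPM (1.09, adjusted p = 0.118). Col1a2 had 1 and 3 counts against 30 and 3, and Col3a1 and Postn had at most 2 counts in any library. The part of all these markers in the lower levels of ribosomal protein genes was not tested.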

How the data were processed

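Raw counts per gene were used as deposited by the authors, without normalization, for 2 WT and 2 Pim3-/- libraries, and no sample was left out. Per the paper, reads were trimmed with Cutadapt and mapped to mm10 (Hisat2) and genes were those of Ensembl, whereas the submitters' processing notes name Trim Galore, STAR, featureCounts and GRCm38. Strand use and the treatment of reads with several locations are not given in the sources used here. The deposited table of transposable elements was not used here.

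Genes were filtered with filterByExpr (minimum count 10, minimum total 15), which kept 18444 of 31418 genes with a count. Counts were scaled by TMM factors (0.828 and 0.883 for WT, 1.17 and 1.17 for Pim3-/-) and compared with the quasi-likelihood test of edgeR 4.0.16 in R 4.3.3, with Benjamini-Hochberg adjustment over all tested genes, a threshold of 0.05 and no covariate. The steps were tested on simulated data. DESeq2 1.42.0, other scalings, other filters, a block for the replicate number and the omission of each library were alternatives. Positions, transcript lengths and snoRNAs came from GENCODE vM21 on GRCm38. A count of 0 allows up to 3 counts, 0.112 to 0.157 CPM.

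The members and lists were chosen with earlier results of these data known. Named members are the stalk and other members of known function, all rows with suffix l or l1, the 5 lowest and 5 highest fold changes, the 3 highest and 3 lowest levels per length, and the 5 largest and 5 smallest differences between the clones, and for lists the 3 genes of lowest p in each direction that passed. Rps9, the members with printed start sites and those beside a count of 5 were named after their values were seen. Some items are not reported here.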

Additional observations from a re-analysis of the deposited data

How the results depend on the processing

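Members called lower numbered 13 with library totals, 0 when scaled on the summed members (also 0 at an unadjusted p under 0.05, by edgeR) and 34 with the replicate block (17.7% of all genes), against 65, and between 0 and 81 when 1 library was left out, in fits where the lone library of a group is assumed to vary like the others. When scaled on the summed members, 1 member (Rps2) was called higher. The median log2 fold change of members was -0.44 with library totals, -0.040 when scaled on the summed members, which sets the family's total change to about 0 and left 48 of 85 members negative, and -1.11 to -0.78 when 1 library was left out. Other size factors, filters and DESeq2's Wald test gave 52 to 75 members lower, beside 9.47% to 17.3% of all tested genes. Over all tested genes, the share called lower was 5.92% with library totals and 0.878% when scaled on the summed members. The pseudogene rows added to members gave 65. The rows of mitochondrially encoded genes, 37 in all, held 0 counts, so leaving them out changed no share, and the log2 ratio of the family's share, -0.40, stayed between -0.54 and -0.27 with 1 library left out. The labels give no pairing of samples by replicate number. With only 2 pairs, the deviations of same-numbered libraries correlated at 0.02 over 18444 genes and at -0.21 over the tested members. WT replicate 1 was the higher WT library for 85 of 85 members, and Pim3-/- replicate 2 the higher clone for 74. The cause of the 34 calls was not tested.

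Biogenesis genes called lower were 41 with library totals, 3 when scaled on the summed members and 14 to 141 with 1 library left out. Those called higher were 0 with DESeq2's size factors, with no filter and with the Wald test. They were 4 with library totals and 16 on the summed members, where 6606 and 9528 of all 18444 tested genes were called higher. Other TOP genes called lower were 5, 1 and 2 to 22 under the same changes and 11 when every library needed at least 10 counts. Those called higher were 0 with DESeq2's size factors and the replicate block, 2 with library totals, 5 on the summed members and 0 to 2 with 1 library left out. Mitochondrial ribosomal protein genes called lower were 38 with library totals, 4 on the summed members and 15 to 75 with 1 library left out, and 1 was called higher on the summed members.

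Of the 38 tested members named by the rule, 23 passed the test. Of these, 23 no longer passed without WT replicate 1 and 18 without WT replicate 2, 16 with library totals and 7 with the replicate block. With library totals the sign changed for Rplp2 (0.11), Rpl3l (0.38), Rps2 (0.057) and Rpl28 (0.0056). With at least 10 counts in every library it changed for Rpl3l (0.0097), and without Pim3-/- replicate 1 for Rpl22l1, whose values with 1 library left out ran from -1.92 to 0.19. On the summed members, where values are relative to the family, it changed for Rplp2 (0.52), Rps6 (0.013), Rpl5 (0.12), Rpl11 (0.078), Rpl4 (0.15), Rpl3 (0.21), Rpl22 (0.24), Rpl39 (0.078), Rpl22l1 (0.30), Rps4l (0.33), Rpl10l (0.020), Rpl39l (0.14), Rpl3l (0.79), Rps2 (0.46), Rpl28 (0.40), Rpl8 (0.40) and Rpl30 (0.14). Each group has 2 libraries, and no alternative with fewer counts a library was run.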
